A study of Mus musculus with 12 samples.

Results

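DNA replication depends on a fixed set of proteins whose genes are switched on together as a cell enters S phase. The 43 genes described here encode a chosen part of that set. They cover origin licensing, the MCM helicase and its activators, DNA polymerases and primase, the sliding clamp and its loader, enzymes that supply deoxynucleotides or process the fork, the cyclins and the factor that open S phase, and proteins that act on newly made chromatin. They are a list of mouse gene symbols with no threshold on a measured value, drawn up with earlier results of these data known. All 43 were found by Ensembl identifier among the 38924 gene identifiers counted in each tumor, and all 43 passed the filter on low counts that left 16645 genes for testing.

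RNA had been sequenced from 12 pancreatic neuroendocrine tumors (PanNETs) of RIP1Tag2 mice, labeled as islet tumor or insulinoma and as strain C57Bl6. All 12 tumors, the controls included, carry the same transgene, in which the rat insulin promoter drives the SV40 T antigens in pancreatic beta cells. Control mice had received saline, sunitinib-treated mice the VEGF and PDGF receptor inhibitor sunitinib, and R+S-treated mice rapamycin, an mTOR inhibitor, together with sunitinib, with 4 tumors per group. The mice were 15.5 weeks old when treatment began, and it was given for 4 days. The samples used here hold no group given rapamycin alone, so R+S versus sunitinib is the comparison that differs by rapamycin.

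In a quiescent cell the retinoblastoma protein holds E2F transcription factors inactive, and cyclin E with its kinase releases them. Free E2F activates many of the genes described here. Large T antigen binds the retinoblastoma protein and its relatives, so this brake is impaired in the tumor cells of the model, whatever the treatment.

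Promoters of replication genes often carry words that E2F can bind. Stretches of 120 bases directly upstream of the transcription start in RefSeq are printed for 3 members that carry an E2F-type word (*Mcm6*, *Rfc3* and *Gins3*) and for *Pcna*, which carries no E2F-type word. They are RefSeq sequence on GRCm38.p6, 5′ to 3′ on the strand of the gene, with the E2F-type words in capitals. The stretch of *Mcm6* is chr1:128359706-128359825 (minus strand), that of *Rfc3* chr5:151651209-151651328 (minus strand), that of *Gins3* chr8:95633439-95633558 (plus strand) and that of *Pcna* chr2:132253181-132253300 (minus strand). Gene coordinates given below are from GENCODE, whose starts can differ from those of RefSeq. The stretch of *Pcna*, most of that of *Gins3* and part of that of *Rfc3* lie inside the GENCODE genes.
Mcm6: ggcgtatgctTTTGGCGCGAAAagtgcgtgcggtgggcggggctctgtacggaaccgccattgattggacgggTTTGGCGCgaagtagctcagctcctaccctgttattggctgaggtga
Rfc3: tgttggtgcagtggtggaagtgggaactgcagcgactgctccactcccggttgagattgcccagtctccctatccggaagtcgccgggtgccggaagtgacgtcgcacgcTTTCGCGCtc
Gins3: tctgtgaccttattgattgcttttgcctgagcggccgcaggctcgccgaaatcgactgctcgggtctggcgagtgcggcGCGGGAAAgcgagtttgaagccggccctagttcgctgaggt
Pcna: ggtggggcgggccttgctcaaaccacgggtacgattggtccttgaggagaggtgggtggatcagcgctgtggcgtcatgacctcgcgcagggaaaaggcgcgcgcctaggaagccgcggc

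*Mcm6* held 3 words, the first pair of them overlapping, so that its first run of capitals is longer. The word of *Gins3* is on the opposite strand and therefore reads as its reverse complement. *Rfc3* held a further word at the start site itself, outside the printed stretch. The words searched on both strands were TTTCCCGC, TTTCGCGC, TTTGCCGC and TTTGGCGC, in windows from 250 bases before to 50 bases after the start.

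A RefSeq promoter was matched for 35 of the 43 members, and 12 of these 35 (34.3%) held an E2F-type word, compared with 514 of 17492 protein-coding promoters (2.94%). By role, the word was in 4 of 5 matched promoters of the MCM helicase, 3 of 4 of origin licensing and 3 of 5 of the polymerases, and in 1 each of the clamp and loader and of the helicase activators. It was in 0 of 4 promoters of nucleotide supply, 0 of 4 of fork processing, 0 of 2 of the entry to S phase and 0 of 3 of new chromatin. Some matched starts lay away from the RefSeq gene start, by 466 bases for *E2f1*, 442 for *Cdc6*, 2978 for *Rfc1* and 3749 for *Orc1*. The window of *E2f1* lay inside the gene, so sequence upstream of its annotated gene start was not searched. The NF-Y-type word CCAAT was in 21 of the 35 (60%) and in 39.2% of all protein-coding promoters, and the CHR word TTTGAA, best known from late cell-cycle genes, was in 4 of the 35 (11.4%) and in 16.5% of all. Among members that were lower in R+S-treated than in sunitinib-treated tumors, 4 of 11 matched promoters (36.4%) held an E2F-type word, as did 8 of 24 (33.3%) among the other members. These matches describe letters and not bound sites. No promoter was matched for *Mcm4*, *Gins1*, *Gins2*, *Gins4*, *Rfc2*, *Pole*, *Prim2* and *Ccne2*.

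**Figure D1:**
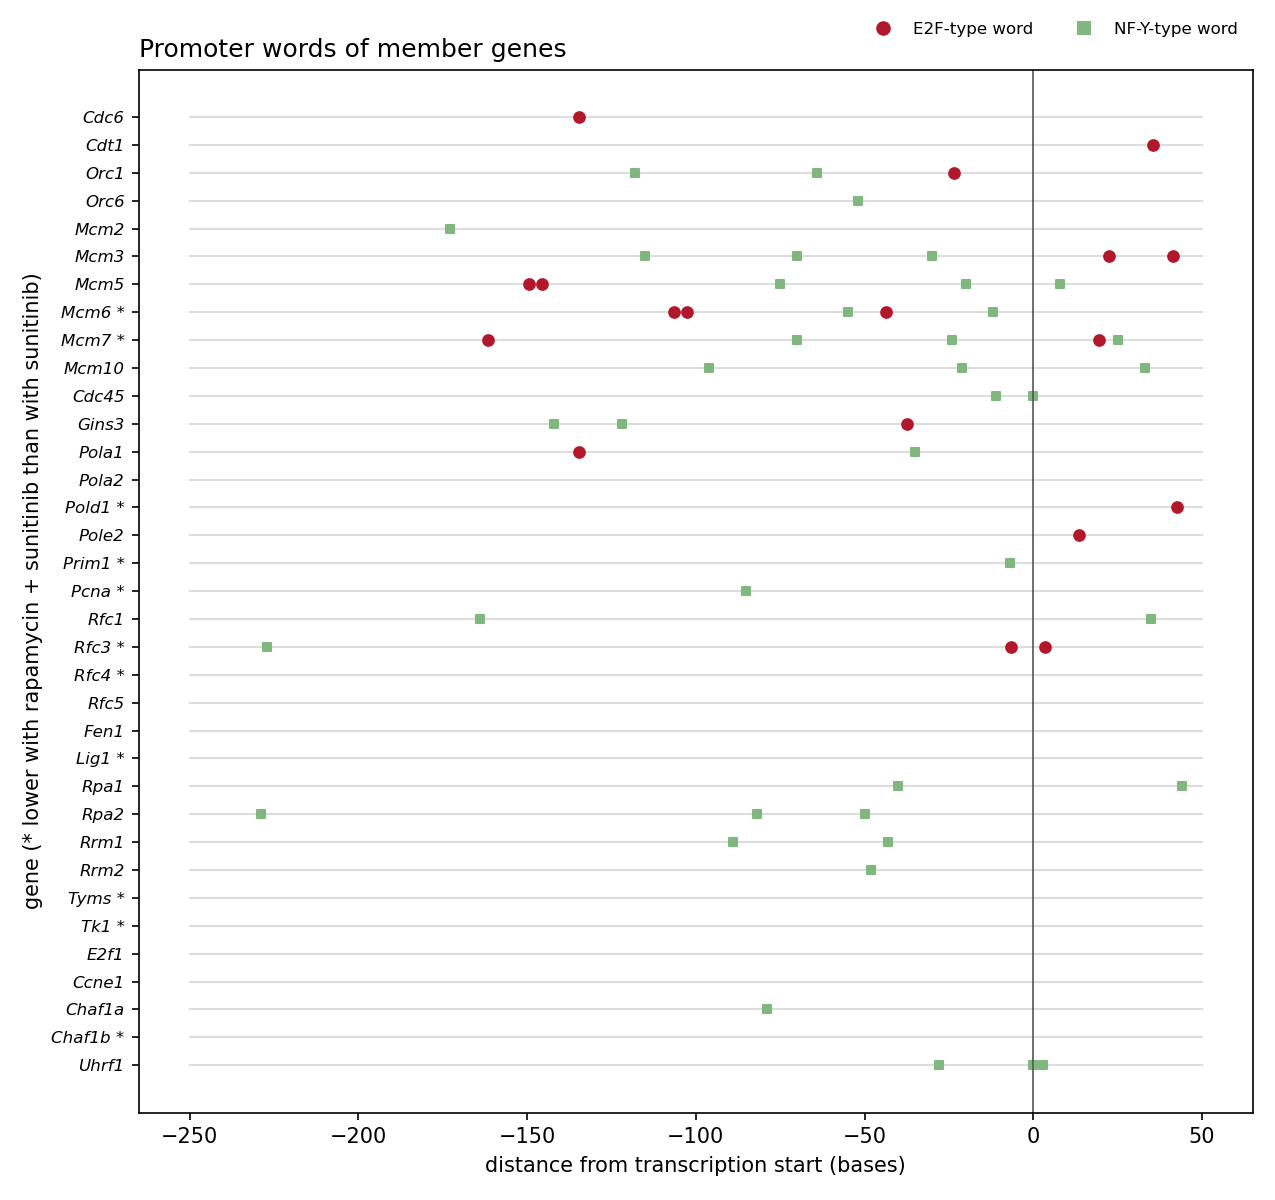
Positions of E2F-type words (red circles) and NF-Y-type words (green squares) in the 35 matched promoters, 1 row per gene ordered by role, against the distance in bases from the transcription start. E2F-type words stand in 12 of the 35 rows, mostly in those of licensing factors and MCM subunits, and an asterisk marks members that were lower in R+S-treated than in sunitinib-treated tumors.

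Between 31872342 and 44215054 reads were counted on genes per tumor, and a member gene received between 136 and 11381 reads in any tumor. The beta-cell markers, insulin included, were found in every tumor, and their summed level was 34801 CPM (counts scaled to the size of each library) or more in 11 tumors and 4692 CPM in sunitinib-treated tumor 6. That tumor also stood apart in overall expression, with correlations of 0.872 to 0.895 (Pearson, log2 CPM) with the other tumors of its group. Acinar markers, which belong to the exocrine pancreas, summed to 41.7 to 132 CPM in control, 11561 to 41650 CPM in sunitinib-treated and 3155 to 17696 CPM in R+S-treated tumors, and 5 of the 20 (*Cela2a*, *Rbpjl*, *Ptf1a*, *Zg16* and *Sycn*) were at 0 in some control tumors. Endothelial markers summed to 631 to 834, 61.2 to 101 and 136 to 175 CPM in the same order, and fibroblast markers to 314 to 906, 681 to 964 and 406 to 502 CPM. Lymphocyte markers, from cells that can themselves divide, summed to 39.4 to 59.4, 15.5 to 42.4 and 33.8 to 56.5 CPM. The labels carry a prefix that never occurs in more than 1 group, so prefix and treatment cannot be told apart. Within groups, 1 prefix is shared by all 4 control tumors, another by sunitinib-treated tumors 5, 6 and 8, and another by R+S-treated tumors 5 and 7. Nothing in the labels says that tumors came from separate mice. P-values here therefore measure the spread between these tumors, which may be less than that between animals.

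Compared per length, the members spanned a wide range of transcript levels. In control tumors the most abundant were *Pcna*, the sliding clamp, at 77.1 ± 12.9 RPKM (CPM divided by exon length in kilobases, SD, n = 4), *Fen1*, the flap endonuclease, at 65.4 ± 8.79 RPKM, and the origin recognition subunit *Orc6* at 57.9 ± 13.6 RPKM. All but 1 of the 6 MCM subunits followed within the first 11 ranks, with *Mcm6* at 47.9 ± 5.63, *Mcm5* at 42.6 ± 11.3, *Mcm3* at 41.8 ± 3.22, *Mcm7* at 34.6 ± 3.45 and *Mcm2* at 29.9 ± 0.825 RPKM, whereas *Mcm4* was at 20.5 ± 2.03 RPKM. At the lower end stood *Gins2* at 5.49 ± 1.24, thymidine kinase *Tk1* at 5.47 ± 0.973 and *Orc1* at 2.42 ± 0.449 RPKM. In this order, 38 of the 42 pairs of neighbours had means that differed by less than the larger of their SDs, those among the first 11 ranks included. The exceptions were the steps from *Rfc3* to *Ccne1*, *Tyms* to *Chaf1a*, *Pola2* to *Gins1* and *Tk1* to *Orc1*. Levels of *Fen1*, *Gins2* and *Chaf1a* are uncertain, because 84.2%, 67.3% and 52.5% of their exon bases overlap exons of a gene on the opposite strand and the sources used here do not say whether strand was used in counting.

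In the fit of all 12 tumors, most of the called changes were found in R+S-treated tumors compared with tumors given sunitinib alone. Here 12 of the 43 members were lower and 0 higher at an adjusted p under 0.05 (edgeR quasi-likelihood F-test), against 4.58% lower and 2.63% higher among all 16645 genes. The median log2 fold change of the members was -0.57, and that of all genes -0.03. Of the 43 estimates, 42 were negative, which holds for 51.8% of all genes, and *Gins3*, a subunit of the GINS helicase activator, was the exception (0.23, SE 0.23). In 18 members every R+S-treated tumor lay below every sunitinib-treated tumor, which holds for 9.73% of all genes, and 31 had an unadjusted p under 0.05 in this direction (17.6% of all genes).

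These calls sat close to the threshold, with adjusted p of 0.0252 to 0.0418. Leaving out R+S-treated tumor 4, 5 or 7 left 0 members called, with 1, 0 and 1 genes called in the whole table, leaving out sunitinib-treated tumor 12 left 2 and tumor 8 left 5, and a fit of only the 8 tumors compared called 0 members and 3 genes in all. The median of the members stayed between -0.73 and -0.49 over all these fits. With only the 8 tumors compared, R+S versus control had more members called than R+S versus sunitinib, the reverse of the order with all 12 tumors. In bulk tumors, fewer cells in S phase and less RNA per cell cannot be told apart.

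**Figure D2:**
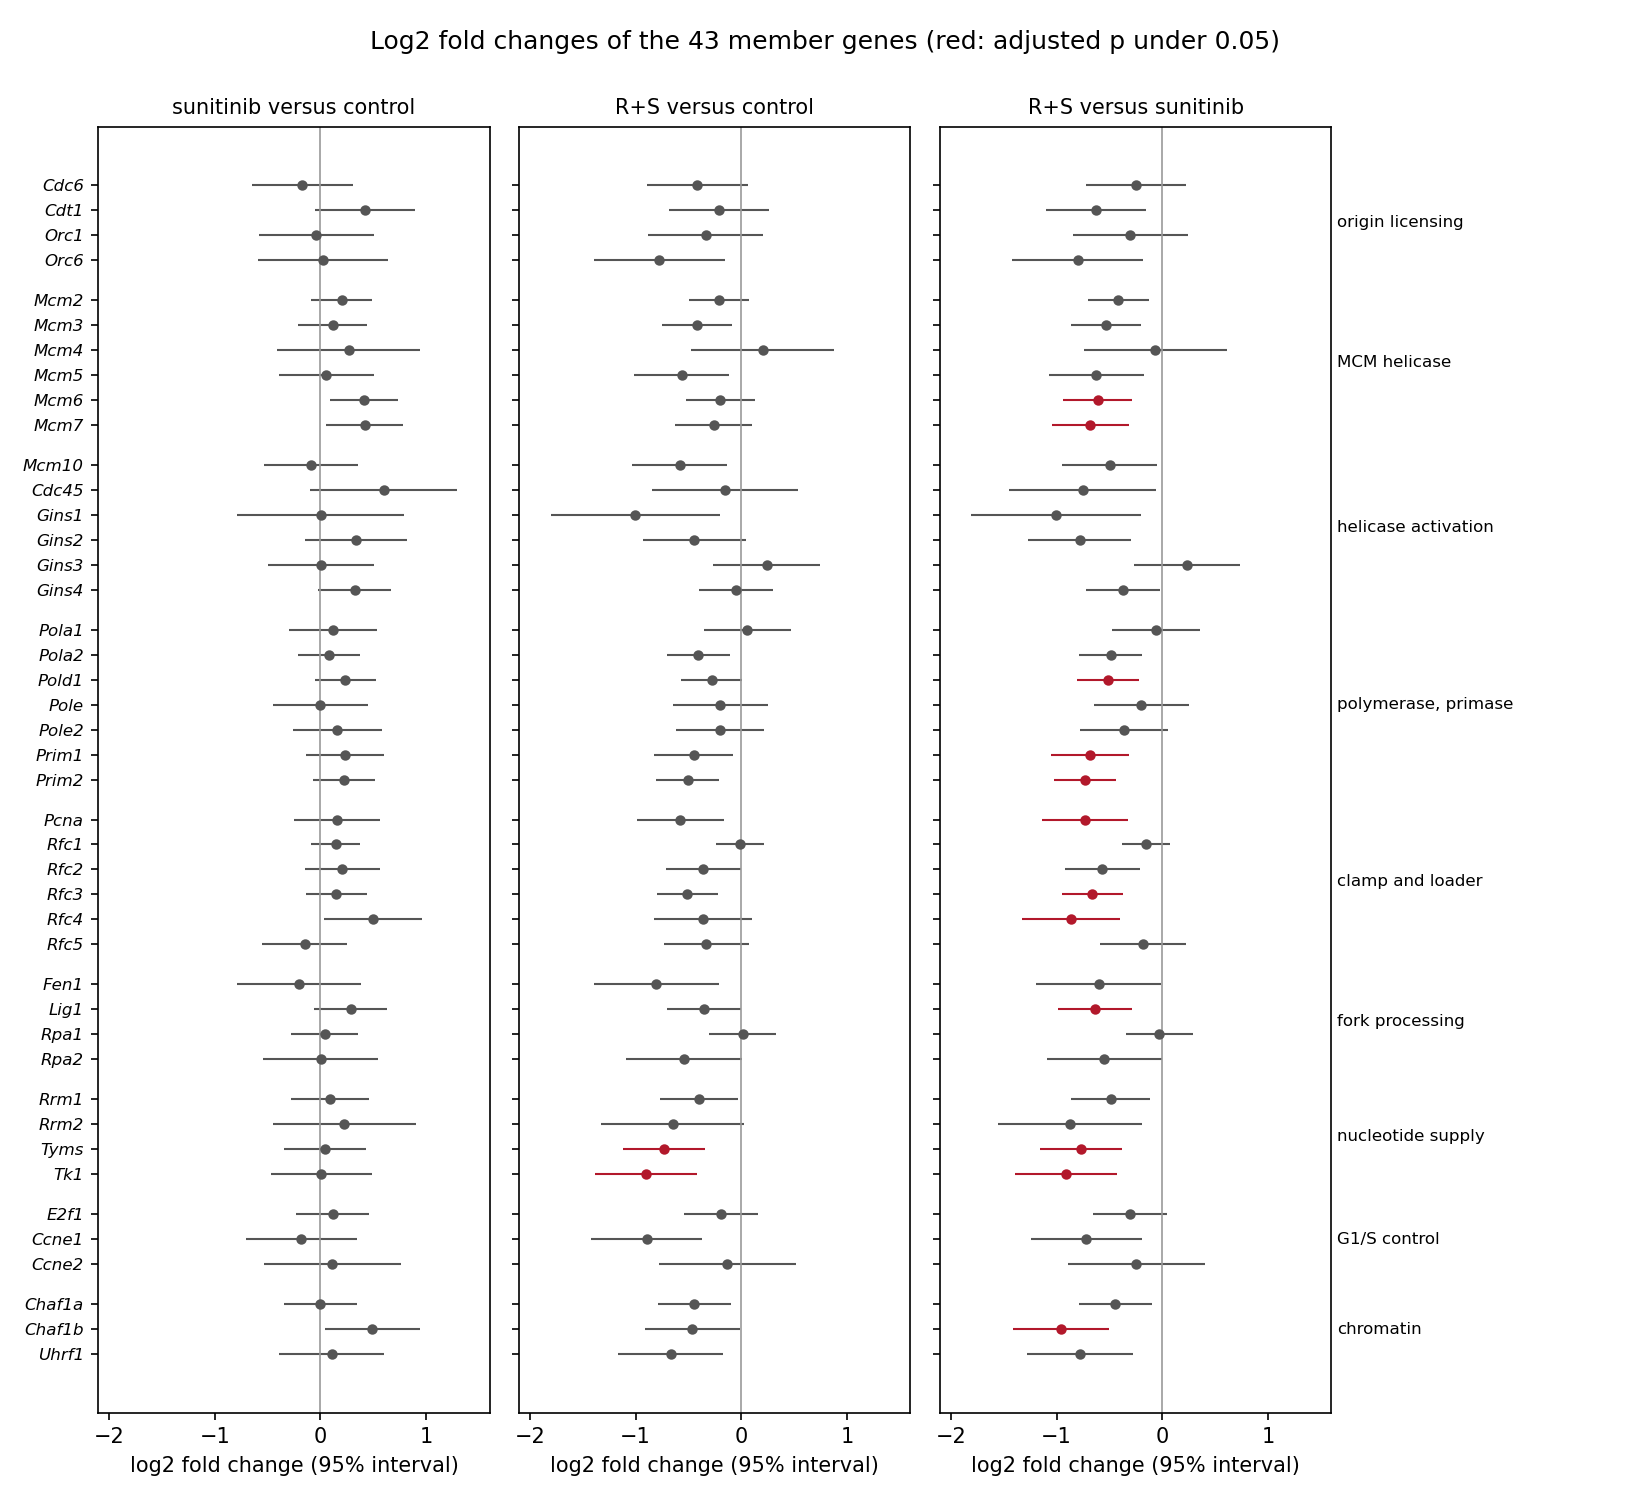
Log2 fold change of each of the 43 genes (points) with its 95% interval (bars) in the 3 comparisons, grouped by role, with genes at an adjusted p under 0.05 in red. For R+S versus sunitinib 42 of 43 points lie left of 0 and 12 are red, for R+S versus control 39 lie left and 2 are red, and for sunitinib versus control 8 lie left and none is red.

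Compared with control tumors, R+S-treated tumors had 2 members called lower, *Tk1* and *Tyms*, against 2.61% of all genes, and 0 called higher, against 1.55%. The 2 of 43 are near that background share, whereas 39 of 43 estimates were negative (49% of all genes) with a median log2 fold change of -0.40 (all genes 0.01). The groups did not overlap in 9 members, all lower, which holds for 11.9% of all genes, and 20 members had an unadjusted p under 0.05 in this direction (10.9% of all genes). Leaving out R+S-treated tumor 10 gave 8 called members, and leaving out control tumor 2, 3 or 4 or R+S-treated tumor 4, 5 or 7 gave 0. The number of all genes called in these fits is not given here.

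Sunitinib alone gave no called member in either direction by edgeR or by DESeq2, against 2.55% lower and 1.93% higher among all genes. The median log2 fold change was 0.12 (all genes 0.03), and 35 of the 43 estimates were positive, as were 53.3% of all genes. At an unadjusted p under 0.05, 4 members, *Mcm6*, *Mcm7*, *Rfc4* and *Chaf1b*, were higher (11.3% of all genes) and 0 lower (8.2% of all genes). In 5 members, *Mcm2*, *Mcm6*, *Mcm7*, *Cdt1* and *Pold1*, the lowest sunitinib-treated tumor exceeded the highest control, which holds for 5.17% of all genes. The comparisons of R+S and of sunitinib with control share the 4 control tumors, and the comparisons of R+S with sunitinib and of sunitinib with control share the 4 sunitinib-treated tumors. A high sunitinib-treated group therefore enters 2 of the 3 comparisons with opposite sign.

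In what follows, levels are normalized CPM and are given for control tumors 1, 2, 3 and 4, then for sunitinib-treated tumors 5, 6, 8 and 12, then for R+S-treated tumors 4, 5, 7 and 10, always in this order. Coordinates are on GRCm38. The exact two-sided permutation test of 4 tumors against 4 reaches 0.0286 at the smallest, the value it gave for every gene described as not overlapping.

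The licensing factors load the helicase at origins before S phase begins. None of the 4 was called in any comparison, and their log2 fold changes for R+S versus sunitinib ran from -0.80 to -0.25. *Cdt1* (ENSMUSG00000006585, chr8:122568015-122573554, plus strand), which brings the MCM complex to the origin, was at 37.00, 59.4, 66.8 and 64.1 CPM in control, 69.3, 84.2, 67.8 and 82.4 CPM in sunitinib-treated and 38.8, 37.8, 54.2 and 65.9 CPM in R+S-treated tumors. All R+S-treated tumors lay below all sunitinib-treated ones, but control tumor 1 was as low as the R+S-treated tumors 4 and 5. The log2 fold change was -0.63 (SE 0.22, adjusted p = 0.0854) for R+S versus sunitinib and 0.42 (SE 0.22, adjusted p = 0.312) for sunitinib versus control. *Orc6*, *Orc1* and *Cdc6* had estimates of -0.80, -0.30 and -0.25 for R+S versus sunitinib, with adjusted p of 0.0908, 0.431 and 0.459.

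The MCM2-7 ring is the motor of the replicative helicase, and 2 of its 6 subunits, *Mcm6* and *Mcm7*, fell in R+S-treated compared with sunitinib-treated tumors. *Mcm6* (ENSMUSG00000026355, chr1:128331590-128359664, minus strand) was at 194, 209, 247 and 245 CPM in control, 266, 289, 291 and 345 CPM in sunitinib-treated and 179, 159.9, 196 and 245 CPM in R+S-treated tumors. Every sunitinib-treated tumor exceeded every control and every R+S-treated tumor, and R+S-treated tumor 10 reached the level of controls 3 and 4. Its mean was 195 ± 36.5 CPM in R+S-treated and 298 ± 33.5 CPM in sunitinib-treated tumors, 34.5% lower in the fit (-0.61, SE 0.15, adjusted p = 0.0368). Against control the estimates were 0.41 for sunitinib and -0.20 for R+S, with adjusted p of 0.155 and 0.487.

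*Mcm7* (ENSMUSG00000029730, chr5:138164583-138172422, minus strand) was at 152, 133, 169.6 and 157 CPM in control, 171, 241, 174 and 234 CPM in sunitinib-treated and 107, 112, 128 and 165 CPM in R+S-treated tumors. Sunitinib-treated tumors 6 and 12 were the highest of all, the sunitinib-treated group lay above both others, and R+S-treated tumor 10 lay inside the range of controls. The log2 fold change for R+S versus sunitinib was -0.68 (SE 0.17, adjusted p = 0.0374). The gene hosts microRNAs and overlaps *Ap4m1* and *Cops6*, and 23.3% of its 50-base words occur in another gene. *Mcm2* (ENSMUSG00000002870, chr6:88883474-88898780, minus strand), a subunit widely used as a marker of licensed cells, was at 201, 215, 209.8 and 207 CPM in control, 226, 233, 241 and 256 CPM in sunitinib-treated and 165, 148, 174 and 232 CPM in R+S-treated tumors. Control tumors differed little from each other, and only R+S-treated tumor 10 reached the range of the other groups. The estimate for R+S versus sunitinib was -0.41 (SE 0.13, adjusted p = 0.0690), short of the threshold, and that for sunitinib versus control 0.20 (SE 0.13, adjusted p = 0.424).

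The other 3 subunits did not pass the test. *Mcm5* was at 163 to 185 CPM in sunitinib-treated and 92.1 to 153 CPM in R+S-treated tumors, with no overlap (-0.62, SE 0.21, adjusted p = 0.0795), and *Mcm3* had an estimate of -0.53 (SE 0.15, adjusted p = 0.0532). *Mcm4* was different, at 70.9, 65.2, 76.5 and 82.2 CPM in control, 84.3, 159, 60.7 and 50.9 CPM in sunitinib-treated and 64.00, 113, 71.7 and 90.4 CPM in R+S-treated tumors. Sunitinib-treated tumor 6 alone held the high value of its group, R+S-treated tumor 5 was the highest of its own, and the estimate was -0.07 (SE 0.31, adjusted p = 0.903). Without sunitinib-treated tumor 6 it became 0.38.

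The helicase is switched on by CDC45, the GINS complex and MCM10, and none of their 6 genes was called in any comparison. *Cdc45* (ENSMUSG00000000028, chr16:18780447-18811987, minus strand) was at 31.96, 25.8, 32.8 and 31.9 CPM in control, 28.2, 74.1, 57.2 and 25.96 CPM in sunitinib-treated and 19.1, 36.2, 24.1 and 30.6 CPM in R+S-treated tumors. Sunitinib-treated tumors 6 and 8 were high, tumors 5 and 12 lay within the range of controls, and the groups overlapped. *Cdc45* had the largest positive estimate of the 43 for sunitinib versus control (0.60, SE 0.32, adjusted p = 0.325), and without tumor 6 that estimate was 0.28. *Gins1* (ENSMUSG00000027454, chr2:150905400-150931280, plus strand), which held the lowest read count of any member in a tumor (136 in R+S-treated tumor 4), was at 9.65, 7.88, 12.4 and 12.1 CPM in control, 4.03, 12.4, 11.2 and 14.4 CPM in sunitinib-treated and 3.77, 4.17, 5.19 and 7.82 CPM in R+S-treated tumors. R+S-treated tumors were all below controls, but sunitinib-treated tumor 5 was as low as they were, and the estimates were -1.003 (SE 0.37, adjusted p = 0.153) against control and -1.004 (SE 0.37, adjusted p = 0.0981) against sunitinib. These were the lowest estimates of the 43 in both comparisons, and they did not pass. *Mcm10* had -0.58 against control and -0.50 against sunitinib, with adjusted p of 0.138 and 0.132.

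Primase makes the RNA primers on which the polymerases start, and both of its genes fell in R+S-treated compared with sunitinib-treated tumors. *Prim2* (ENSMUSG00000026134, chr1:33453810-33669795, minus strand), the large primase subunit, was at 36.7, 32.5, 40.6 and 36.6 CPM in control, 34.8, 51.7, 37.1 and 47.1 CPM in sunitinib-treated and 24.9, 25.7, 26.4 and 25.9 CPM in R+S-treated tumors. The R+S-treated tumors, tumor 10 included, lay close to each other and below every tumor of both other groups. The mean was 25.7 ± 0.637 CPM against 42.7 ± 8.04 CPM with sunitinib and 36.6 ± 3.33 CPM in controls. The log2 fold change was -0.73 (SE 0.14, adjusted p = 0.0252) against sunitinib, the smallest adjusted p of the 43, and -0.51 (SE 0.14, adjusted p = 0.0569) against control.

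*Prim1* (ENSMUSG00000025395, chr10:128015168-128030037, plus strand), the catalytic subunit, was at 74.8, 76.7, 105 and 102 CPM in control, 89.5, 101, 107 and 123 CPM in sunitinib-treated and 55.4, 55.7, 67.3 and 83.4 CPM in R+S-treated tumors. R+S-treated tumors 4, 5 and 7 lay below all controls and tumor 10 between them, and all 4 lay below the sunitinib-treated group (-0.69, SE 0.17, adjusted p = 0.0380). *Pold1* (ENSMUSG00000038644, chr7:44532746-44548849, minus strand), the catalytic subunit of the lagging-strand polymerase delta, was at 91.9, 81.6, 102 and 97.7 CPM in control, 103, 116, 104 and 115 CPM in sunitinib-treated and 60.1, 73.9, 79.4 and 93.6 CPM in R+S-treated tumors. Sunitinib-treated tumors were the highest 4 of the 12, R+S-treated tumor 10 lay among the controls, and the difference was the smallest of those called (-0.51, SE 0.13, adjusted p = 0.0418). *Pola2* missed the threshold narrowly (-0.49, SE 0.14, adjusted p = 0.0503) without overlap, whereas *Pola1*, *Pole* and *Pole2* had estimates of -0.06, -0.20 and -0.36.

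The PCNA ring tethers polymerases to DNA and is loaded by the RFC complex, whose subunits are *Rfc1* to *Rfc5*. *Pcna*, *Rfc3* and *Rfc4* fell in R+S-treated compared with sunitinib-treated tumors. *Pcna* (ENSMUSG00000027342, chr2:132249162-132253314, minus strand), whose stretch upstream of the RefSeq start is printed above without an E2F-type word, was at 146, 174, 206 and 214 CPM in control, 166, 255, 191 and 212 CPM in sunitinib-treated and 106, 101, 127 and 162 CPM in R+S-treated tumors. R+S-treated tumors 4, 5 and 7 were the lowest of all 12, and tumor 10 lay just under the lowest tumor of the sunitinib-treated group. On the log2 scale it changed by -0.73 (SE 0.19, adjusted p = 0.0412) against sunitinib and -0.58 (SE 0.19, adjusted p = 0.110) against control. Of the 50-base words of *Pcna*, 19.1% occur in another gene, which limits how exactly its reads can be assigned.

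*Rfc3* (ENSMUSG00000033970, chr5:151642756-151651242, minus strand) was at 59.1, 57.2, 65.3 and 65.3 CPM in control, 60.1, 68.1, 66.4 and 79.4 CPM in sunitinib-treated and 40.3, 35.8, 44.4 and 52.5 CPM in R+S-treated tumors. All 4 R+S-treated tumors lay below the other 8, and its fall against sunitinib was called in 5 of the 8 fits that left out 1 tumor, as was that of *Prim2*, more often than any other member. The log2 fold change was -0.66 (SE 0.13, adjusted p = 0.0263) against sunitinib and -0.51 (SE 0.13, adjusted p = 0.0516) against control, the latter just short of the threshold. *Rfc4* (ENSMUSG00000022881, chr16:23113943-23127737, minus strand) was at 30.4, 22.6, 28.1 and 26.5 CPM in control, 27.7, 57.5, 33.5 and 33.2 CPM in sunitinib-treated and 18.4, 24.8, 18.8 and 21.4 CPM in R+S-treated tumors. Sunitinib-treated tumor 6 was far above the rest, and without it the estimate for R+S versus sunitinib moved from -0.86 (SE 0.21, adjusted p = 0.0374) to -0.59. R+S-treated tumor 5 also lay above control tumor 2. *Rfc2* and *Rfc5* had -0.57 and -0.18 with adjusted p of 0.0558 and 0.531, and *Rfc1*, the large subunit, varied little, with 78.3 to 87.9, 81.9 to 96.2 and 71.6 to 93.2 CPM in the 3 groups.

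**Figure D3:**
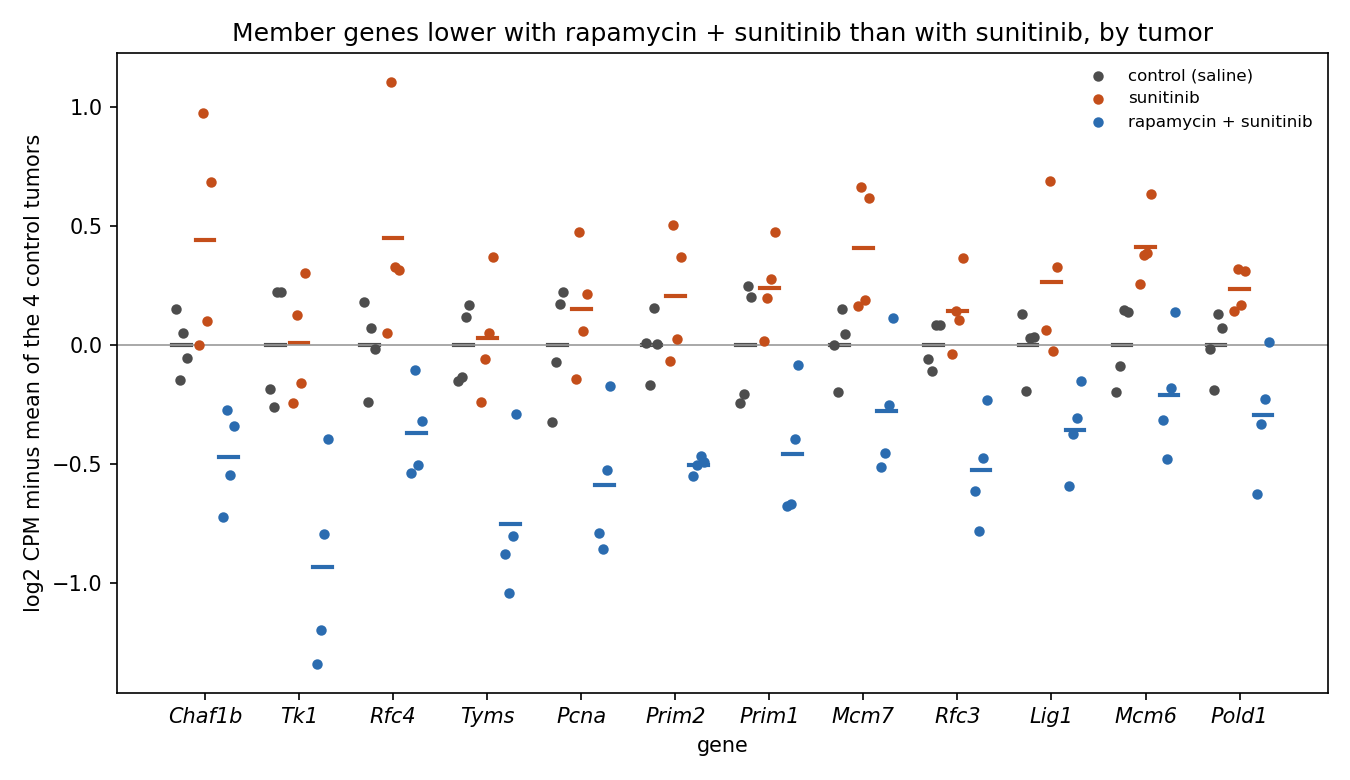
Log2 CPM minus the mean of the 4 control tumors for the 12 members called in R+S versus sunitinib, 1 point per tumor and a bar at each group's mean, ordered by fold change. In every gene the 4 blue points (R+S) lie below the 4 orange points (sunitinib), and the highest blue point reaches the controls (grey) in *Mcm6*, *Mcm7* and *Pold1* among others, but not in *Prim2*, *Rfc3*, *Tk1*, *Tyms* or *Chaf1b*.

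Deoxynucleotide supply held the only members called against both other groups, *Tk1* and *Tyms*. This split is one of threshold. *Rrm2*, *Prim2*, *Rfc3* and *Chaf1b* also lay below every control and every sunitinib-treated tumor, with adjusted p against control of 0.0569 for *Prim2* and 0.0516 for *Rfc3*. *Tk1* (ENSMUSG00000025574, chr11:117815526-117826092, minus strand), the thymidine kinase of the salvage pathway, was at 24.7, 23.5, 32.8 and 32.8 CPM in control, 23.8, 30.7, 25.1 and 34.7 CPM in sunitinib-treated and 11.1, 12.2, 16.2 and 21.4 CPM in R+S-treated tumors. R+S-treated tumors were the lowest 4 of the 12, tumor 10 the nearest to the others. The mean was 15.2 ± 4.65 CPM against 28.6 ± 5.06 CPM with sunitinib and 28.4 ± 5.06 CPM in controls. The fall was 46.7% against sunitinib (-0.91, SE 0.22, adjusted p = 0.0368) and 46.5% against control (-0.90, SE 0.22, adjusted p = 0.0435).

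*Tyms* (ENSMUSG00000025747, chr5:30058202-30073617, minus strand), thymidylate synthase, was at 69.2, 69.9, 83.3 and 86.4 CPM in control, 65.05, 73.8, 79.5 and 99.1 CPM in sunitinib-treated and 41.8, 37.3, 44.1 and 62.8 CPM in R+S-treated tumors. Again all R+S-treated tumors lay below all others, with tumor 10 just under sunitinib-treated tumor 5. Estimated log2 changes were -0.77 (SE 0.18, adjusted p = 0.0328) against sunitinib and -0.73 (SE 0.18, adjusted p = 0.0427) against control. The call against control was kept in 1 of the 8 fits that left out a tumor, for *Tk1* as for *Tyms*. *Rrm2* (ENSMUSG00000020649, chr12:24708241-24714146, plus strand), the S-phase subunit of ribonucleotide reductase, was at 74.6, 87.1, 123 and 127 CPM in control, 73.9, 214, 115 and 77.5 CPM in sunitinib-treated and 60.5, 71.4, 73.1 and 56.8 CPM in R+S-treated tumors. R+S-treated tumors lay below the others in every case, but the spread among sunitinib-treated tumors, with tumor 6 highest, was wide, and the estimates -0.87 (SE 0.31, adjusted p = 0.0926) and, against control, -0.65 (SE 0.31, adjusted p = 0.266) did not pass. Without tumor 6 the estimate against sunitinib was -0.44. *Rrm1*, the large subunit, had -0.49 (SE 0.17, adjusted p = 0.0876) against sunitinib.

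At the fork, DNA ligase I seals the joined fragments, FEN1 trims their flaps and RPA coats single strands. *Lig1* (ENSMUSG00000056394, chr7:13277283-13311433, plus strand) was at 149.9, 119.97, 139.8 and 140.4 CPM in control, 143, 221, 135 and 172 CPM in sunitinib-treated and 90.9, 106, 111 and 123 CPM in R+S-treated tumors. R+S-treated tumors lay below all sunitinib-treated ones, tumor 10 was above control tumor 2, and sunitinib-treated tumor 6 was the highest of the 12. The log2 fold change was -0.64 (SE 0.16, adjusted p = 0.0384) against sunitinib and -0.35 (SE 0.16, adjusted p = 0.242) against control. *Fen1* ranged over 139 to 187 CPM in controls and 61.3 to 134 CPM in R+S-treated tumors without overlap, and its estimate of -0.80 (SE 0.27, adjusted p = 0.124) did not pass. *Rpa1* had -0.03 for R+S versus sunitinib, with a 95% interval of -0.35 to 0.29, and *Rpa2* had -0.55 (adjusted p = 0.164).

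Cyclin E and E2F1 stand at the entry to S phase, and none of their 3 genes was called. *E2f1* (ENSMUSG00000027490, chr2:154559407-154569892, minus strand) was at 87.1, 87.5, 98.6 and 87.9 CPM in control, 98.01, 79.5, 104 and 109.5 CPM in sunitinib-treated and 70.05, 61.6, 79.7 and 105 CPM in R+S-treated tumors. R+S-treated tumor 10 was higher than all controls while tumors 4, 5 and 7 were below them. The estimates were -0.31 (SE 0.16, adjusted p = 0.210) against sunitinib and -0.19 (SE 0.16, adjusted p = 0.532) against control. *Ccne1* (ENSMUSG00000002068, chr7:38097984-38107534, minus strand) was at 26.01, 39.3, 40.3 and 38.8 CPM in control, 26.2, 26.6, 34.3 and 40.5 CPM in sunitinib-treated and 16.7, 12.4, 22.4 and 26.1 CPM in R+S-treated tumors. Control tumor 1 and sunitinib-treated tumors 5 and 6 were as low as R+S-treated tumor 10, and the estimates were -0.72 (SE 0.24, adjusted p = 0.0804) and -0.90 (SE 0.24, adjusted p = 0.05999) in the same order. *Ccne2* had -0.25 (SE 0.30) against sunitinib, with sunitinib-treated tumor 6 at 126 CPM and the other 3 at 43.6 to 63.8 CPM. Without tumor 6 that estimate became 0.17.

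CAF-1 places histones on new DNA, and UHRF1 guides the copying of DNA methylation. *Chaf1b* (ENSMUSG00000022945, chr16:93883901-93906115, plus strand), the middle subunit of CAF-1, had the largest fall among called members. It was at 31.1, 25.3, 29.1 and 27.00 CPM in control, 28.04, 55.2, 30.1 and 45.05 CPM in sunitinib-treated and 17.01, 23.2, 19.2 and 22.2 CPM in R+S-treated tumors. R+S-treated tumors lay below both other groups, and sunitinib-treated tumors 6 and 12 were well above all others. The mean was 20.4 ± 2.82 CPM against 39.6 ± 12.9 CPM, 48.5% lower in the fit (-0.96, SE 0.21, adjusted p = 0.0295). Against control the estimate was -0.46 (SE 0.21, adjusted p = 0.234). *Uhrf1* and *Chaf1a* had -0.78 and -0.45 against sunitinib, with adjusted p of 0.0593 and 0.0916.

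Tumors of a group differed from each other across many members at once. R+S-treated tumor 10 was the highest of its group in 37 of the 43 members, and R+S-treated tumors 4 and 5 were the lowest in 25 and 17. The number of members below every sunitinib-treated tumor was 40, 36, 34 and 18 in R+S-treated tumors 4, 5, 7 and 10, and below every control 37, 33, 30 and 10. The median over the members of log2 CPM minus the control mean was -0.63, -0.55, -0.37 and 0.01 in these 4 tumors, 0.02, 0.17, 0.11 and 0.26 in sunitinib-treated tumors 5, 6, 8 and 12, and -0.19, -0.14, 0.15 and 0.16 in control tumors 1 to 4. Controls were thus spread as well, with tumors 3 and 4 highest in 22 and 17 members and tumors 1 and 2 lowest in 24 and 18. Sunitinib-treated tumor 6, the tumor with few beta-cell transcripts, was the highest of its group in 16 members and the lowest in 12.

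Leaving out both sunitinib-treated tumor 6 and R+S-treated tumor 10 gave 24 members lower than with sunitinib and 17 lower than in control. It still gave 0 for sunitinib versus control. The choice was made after their values in these genes had been seen. R+S-treated tumor 10 was the highest of its group in 37 of the 43 members, so leaving it out lowers that group in advance. The number of all genes called in that fit is not given here. R+S-treated tumor 10 also had the highest acinar sum of its group (17696 CPM, the others 3155 to 13396), the highest lymphocyte sum (56.5 CPM) and the lowest fibroblast sum (406 CPM). Its macrophage sum was 447 CPM (the others 289 to 331), its pericyte and smooth muscle sum 272 CPM (the others 496 to 596) and its sum of hypoxia-induced genes 350.1 CPM (the others 484 to 538). Hypoxia-induced genes summed to 277 to 403 CPM in control and 412 to 1125 CPM in sunitinib-treated tumors, highest in tumor 6. Of the 12, 6 were lower in R+S-treated than in sunitinib-treated tumors (4.58% of all genes) and 0 higher (2.63% of all genes). The part of these cell types and of hypoxia in the members' levels was not tested. With the mean level of the acinar markers as a covariate the median for R+S versus sunitinib was -0.56, and 1 member was called. In that comparison 46.8% of the variance of this acinar score lies between the groups, so it is partly confounded with treatment there too. For the comparisons with control, 94.7% (sunitinib) and 92.1% (R+S) of the variance of that acinar score lies between the groups, so that it cannot be told apart from treatment.

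**Figure D4:**
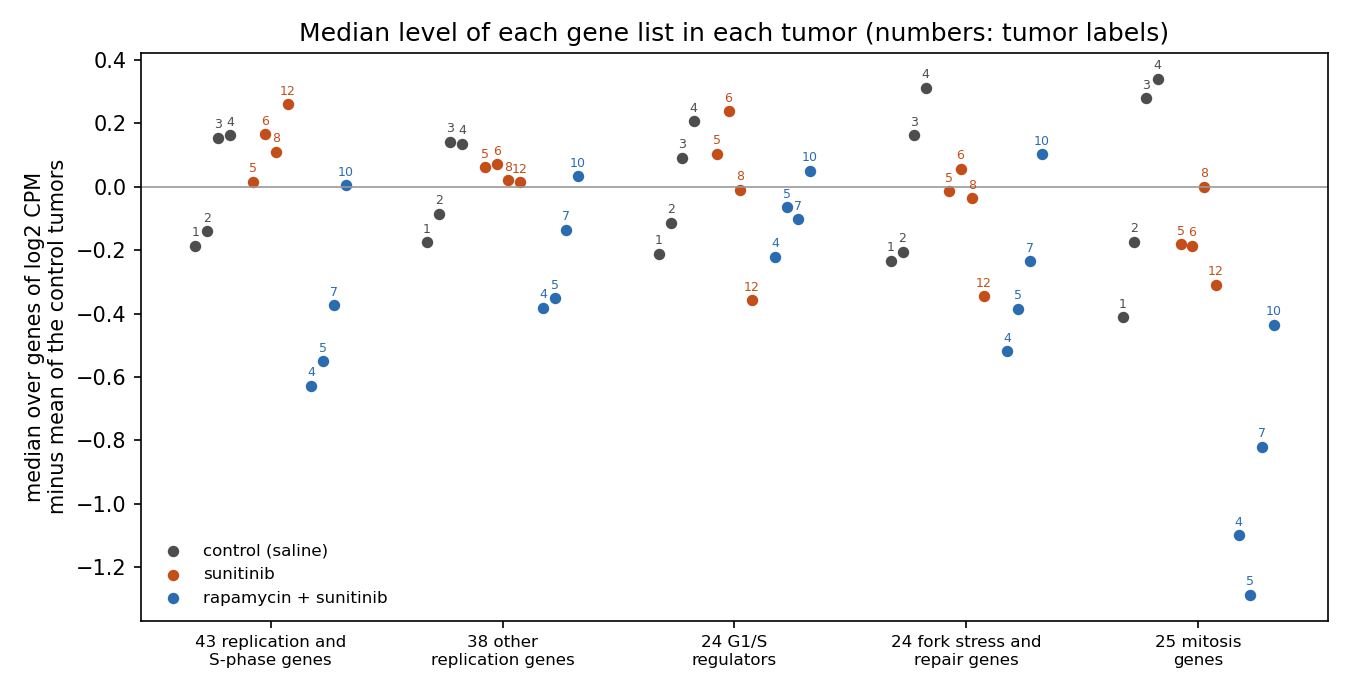
Median over genes of log2 CPM minus the mean of the control tumors, for the 43 replication and S-phase genes and 4 other lists, 1 point per tumor with the tumor number of its label. For the 43 genes R+S-treated tumors 4, 5 and 7 lie at -0.63 to -0.37 and tumor 10 at 0.01, and for mitosis genes all 4 lie below every other tumor, from -1.29 to -0.44.

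The members were set beside 4 further lists of cell-cycle genes. Of 38 other replication genes, 4 were lower and 1 higher in R+S-treated than in sunitinib-treated tumors, with a median log2 fold change of -0.24. Among all genes 4.58% were lower and 2.63% higher, so the 1 of 38 called higher is near the background share. *Gmnn*, geminin, which blocks relicensing, was at 36.2 to 50.4 CPM with sunitinib and 21.8 to 29.6 CPM with R+S (-0.78, SE 0.14, adjusted p = 0.0243). *Dbf4*, the activator of the CDC7 kinase that fires origins, fell against sunitinib (-0.56, SE 0.15, adjusted p = 0.0431) and against control (-0.65, SE 0.15, adjusted p = 0.0303), and the other genes that fell against sunitinib were *Pold2* (-0.61) and *Dut* (-0.58). The exception was *Rrm2b*, the p53-induced subunit of ribonucleotide reductase that serves resting cells. It rose to 56.7 to 79.4 CPM with R+S, from 35.01 to 47.8 CPM with sunitinib and 28.5 to 39.02 CPM in controls, with log2 fold changes of 0.80 (SE 0.15, adjusted p = 0.0252) and 0.97 (SE 0.15, adjusted p = 0.00351). Its S-phase counterpart *Rrm2*, described above, had negative estimates in both comparisons.

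Of 24 G1/S regulators, 2, *Ccna2* and *Myb*, fell against sunitinib (4.58% of all genes), and 1, *Ccna2*, also against control (2.61% of all genes). The median log2 fold change of the 24 against sunitinib was -0.15, with 16 estimates negative and 8 positive (51.8% of all genes negative). *Ccna2*, cyclin A2, was at 232 to 350 CPM in control, 216 to 283 CPM in sunitinib-treated and 124 to 188 CPM in R+S-treated tumors, with log2 fold changes of -0.79 (SE 0.18, adjusted p = 0.0306) against sunitinib and -0.96 (SE 0.18, adjusted p = 0.0106) against control. *Myb* had -1.19 (SE 0.28, adjusted p = 0.0344) against sunitinib. *Rb1* had 0.45 (SE 0.16, adjusted p = 0.0905) in that comparison, with no overlap. Of 24 genes of fork stress and repair, *Ung*, the glycosylase that removes uracil from DNA, was the only one called (-0.70 against sunitinib, SE 0.19, adjusted p = 0.0497). That 1 of 24 is near the 4.58% of all genes called lower in the same comparison. The median of the fork stress and repair genes there was -0.12, with 18 estimates negative and 6 positive.

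Mitosis genes differed more from control than the replication genes did in their medians. Of 25, 13 were lower in R+S-treated tumors than in control, against 2.61% of all genes (median log2 fold change -0.87, for the 43 replication genes -0.40). Compared with sunitinib, 12 were lower, against 4.58% of all genes (median -0.68, for the 43 replication genes -0.57). Sunitinib versus control had 0 called by edgeR, against 2.55% lower and 1.93% higher among all genes. It had 0 at an unadjusted p under 0.05, against 8.2% lower and 11.3% higher. *Ube2c*, the ubiquitin-conjugating enzyme of the anaphase-promoting complex, fell from 131 to 217 CPM in control and 92.7 to 192 CPM with sunitinib to 41.9 to 89.9 CPM (-1.47, SE 0.28, adjusted p = 0.0119 against control, and -1.22, SE 0.27, adjusted p = 0.0311 against sunitinib). *Ccnb1*, cyclin B1, and *Aurka*, the mitotic kinase, fell by 1.19 and 1.22 on the log2 scale against control. *Mki67* and *Top2a*, which are made through S, G2 and M phase, did not pass, with -0.68 and -0.61 against sunitinib (adjusted p = 0.105 and 0.104). The difference between the lists was not tested.

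**Figure D5:**
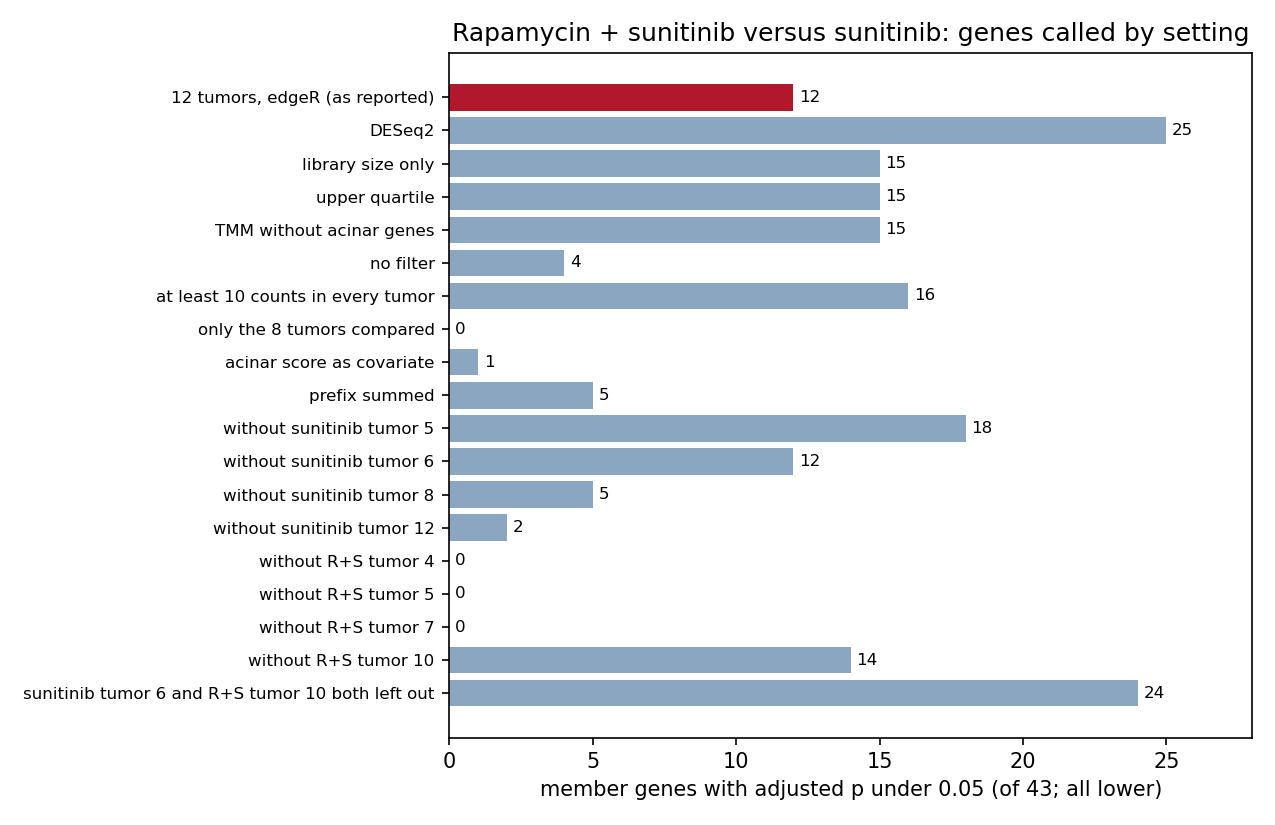
Number of the 43 members with an adjusted p under 0.05 for R+S versus sunitinib (all lower) under each setting of the analysis, with the reported fit in red. The bars run from 0, when R+S-treated tumor 4, 5 or 7 was left out or only 8 tumors were fitted, to 25 with DESeq2. The reported fit called 4.58% of all genes lower. For most other settings, DESeq2 included, the number of all genes called is not given here. Whether a longer bar is particular to the members therefore cannot be told.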

How the data were processed

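Total RNA of 12 tumors had been made into strand-specific poly(A) libraries and sequenced. For each tumor, the authors deposited raw read counts by Ensembl gene, without normalization. The submitters' processing notes name cutadapt 1.2.1, TopHat2 2.0.9, HTSeq 0.5.4p3 and the build GRCm38, and the strand setting of the counting is not given in the sources used here. The closing lines of each table, which name no gene, were left out of library sizes and tests, and reads without a gene were 11.1% to 18.8% of the uniquely aligned reads. Symbols, coordinates and exon lengths came from GENCODE M21, which gave a symbol to 37607 of 38924 identifiers. Groups and tumor numbers came from the labels. No pair of tumors in a group had counts that agreed within sampling noise.

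Genes were filtered with filterByExpr (min.count 10, min.total.count 15), scaled by TMM and fitted in edgeR 4.0.16 (R 4.3.3) with all 12 tumors in 1 model. The quasi-likelihood F-test was used, with Benjamini-Hochberg adjustment over 16645 genes and a threshold of 0.05. The fit was tested on simulated counts. Exact permutation tests used log2 CPM (prior count 2) over 70 arrangements of 4 tumors against 4. With 31872342 to 44215054 reads on genes per tumor and at least 136 reads per member, the spread between tumors limited precision more than counting did. PCR copies were not marked.

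The member genes, their roles and the comparison lists were chosen with earlier results of these data known. Values by tumor are given for every member past the threshold in a comparison, for *Mcm2*, *Pcna*, *Rrm2*, *Tyms*, *E2f1*, *Ccne1* and *Cdt1* whatever they showed, and for the 2 members with the largest absolute log2 fold change in each comparison, and those of *Mcm4* were added after they had been seen. Of the other lists, up to 6 genes with the smallest adjusted p past the threshold could be named, and *Mki67*, *Top2a*, *Ccna2* and *Rb1*. No test over a list was made. Promoters are 300 bases of RefSeq sequence on GRCm38.p6, 1 per gene, the one nearest to the gene start annotated in RefSeq. Shared sequence is how many of a gene's 50-base words, in percent, are also found in another gene's transcripts in either orientation. Alternatives were DESeq2 1.42.0, library-size and upper-quartile scaling, TMM without the acinar genes, no filter or at least 10 counts in every tumor, only the 8 tumors compared, an acinar covariate, treated tumors with 1 label prefix summed, and each tumor left out in turn.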

Additional observations from a re-analysis of the deposited data

Results flagged for a closer look

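Within groups of 4 tumors, the highest or lowest value of each of the 20 members described by tumor was compared with the others by Dixon's ratio of the gap to the range. Of 60 groups, 3 exceeded its 95% critical value, and chance alone gives about 1 in 20. *Cdc45* was low in control tumor 2, at 25.9 CPM with the other 3 controls at 31.9 to 32.8 CPM. *E2f1* was high in control tumor 3, at 98.6 CPM with the others at 87.1 to 87.9 CPM. *Ccne1* was low in control tumor 1, at 26.01 CPM with the others at 38.8 to 40.3 CPM. All 3 are control tumors in genes that passed the threshold in no comparison.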

How the results depend on the processing

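No paired analysis was possible because nothing in the labels pairs a tumor of 1 group with a tumor of another. For R+S versus sunitinib, the 12 members called became 25 with DESeq2, 4 without a filter, 0 with only the 8 tumors compared, 1 with the acinar covariate, 5 with prefixes summed, 24 without sunitinib-treated tumor 6 and R+S-treated tumor 10, and 0 to 18 with 1 tumor left out. For R+S versus control, 2 became 6 with DESeq2, 5 with library-size scaling, 4 with upper-quartile scaling, 0 without a filter, 9 with only the 8 tumors compared, 0 with the acinar covariate, 1 with prefixes summed, 17 without both tumors named above, and 0 to 8 with 1 left out. With prefixes summed, 2 sunitinib-treated and 3 R+S-treated sums remained, and the 4 control tumors stayed separate although they share 1 prefix. With only the 8 tumors compared, the spread is estimated from fewer tumors. The other causes were not tested. For most of these settings the number of all genes called is not given here. Whether a change in the count is particular to the members therefore cannot be told. Sunitinib versus control had 0 under all settings run, and its median of 0.12 moved with the acinar covariate, to 0.31. The other medians kept their sign in every setting. The SD between tumors of the median over members was 0.187 in control, 0.103 in sunitinib-treated and 0.282 in R+S-treated tumors. In some fits the median for R+S versus sunitinib moved by more than the SD of the sunitinib-treated tumors.

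Of the log2 fold changes by gene, 40 values changed sign, 29 of them for sunitinib versus control. Near 0 in that comparison, *Gins1* ran from -0.19 to 0.28 with 1 tumor left out and was -0.043 with library-size scaling, -0.011 without a filter and -0.090 without both tumors. *Tk1* ran from -0.10 to 0.10 and was -0.033, -0.00437 and -0.030 in the same order. *Tyms* ran from -0.086 to 0.14 and was -8.11e-05 with library-size scaling, and *Rrm2* ran from -0.21 to 0.40 and was -0.21 without both tumors. *Mcm4* ran from -0.17 to 0.46 and was -0.17 without both tumors. With the acinar covariate, which is nearly the same as treatment there, *Mcm4* became -1.15, *Cdc45* -1.10, *Rfc4* -0.60, *Lig1* -0.23, *Chaf1b* -0.061 and *Ccne1* 1.31 for sunitinib versus control. In the comparison of R+S with control, *Mcm4* became -1.01, *Mcm6* 0.24, *Cdt1* 0.96, *Prim1* 0.079 and *Ccne1* 0.40. Between R+S and sunitinib only *Mcm4* of the 20 genes described by tumor changed sign, from -0.07 to 0.15 with the acinar covariate, 0.13 with prefixes summed, 0.34 without both tumors and -0.25 to 0.38 with 1 left out. Of all 43 members, *Ccne2*, *Pola1* and *Rpa1* also changed sign there with 1 tumor left out, to 0.17, 0.032 and 0.010 at most. Of the values of the 20 for R+S versus sunitinib, 97 fell short of the threshold and 11 newly passed it. For R+S versus control, 20 fell short and 26 newly passed. The number of tumors limits these results more than depth does.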
